A study of Mus musculus with 79 samples.

Results

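Cholesterol synthesis and its control by the transcription factor SREBP2 were followed through 26 genes in mouse cells and tissue in which AHCY (adenosylhomocysteinase) was deleted or inhibited. AHCY clears S-adenosylhomocysteine, which forms in methyl transfer and inhibits it. The 26 genes were taken by name: 19 encode enzymes of the route from acetyl units to cholesterol and its isoprenoid branch, 2 encode enzymes that supply cytosolic acetyl-CoA, and 5 encode SREBP2, its partners and a sterol carrier. They were found by symbol among the 23511 gene names listed for the knockout experiment, and all 26 were expressed above the filter, a value reaching 1 in at least 3 libraries. In the tables of inhibitor-treated fibroblasts 25 of the 26 were found and tested, while Msmo1 was not analysed here. All 26 were tested in the brain data.

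RNA sequencing covered 79 libraries in 3 experiments. In the first, embryonic fibroblasts of a C57BL/6J background with Ahcy deleted by CRISPR-Cas9 (KO) were set against wild-type fibroblasts (WT) at 6 times, circadian time (CT) 12, 16, 20, 24, 28 and 32, with 3 libraries per time and arm. In the second, fibroblasts of the same background received DZnep (3-deazaneplanocin A), an inhibitor of AHCY, or its solvent DMSO. They were harvested at CT12 or CT24, each group having 3 libraries. All fibroblasts had first received 100 nM dexamethasone for 1 h, which sets their clocks to a common phase, and CT in fibroblasts counts the hours since then. In the third, DZnep or saline was infused into the hypothalamus of C57BL/6 mice aged 10 weeks, and the suprachiasmatic nucleus (SCN), the brain's circadian pacemaker, was sampled at CT3, CT9, CT15 and CT21 with 4 libraries per group, except 3 for saline at CT21. Neither the DZnep dose, nor how long it acted, nor the number of clones behind the KO libraries is given in the labels. Replicates are described as biological, with no word on separate cultures, so p-values measure only the spread between these libraries.

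By GENCODE vM21 on mm10 the genes described most below lie apart in the genome. Idi1 is at chr13:8885501-8892451 (plus strand), Hsd17b7 at chr1:169949535-169969241 (minus), Insig2 at chr1:121304353-121332589 (minus), Insig1 at chr5:28071363-28078662 (plus) and Srebf2 at chr15:82147181-82205379 (plus). Nsdhl, at chrX:72918557-72958514 (plus), and Ebp, at chrX:8185329-8193512 (minus), are X-linked.

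Cholesterol is built by a series of enzymes in the endoplasmic reticulum and cytosol from acetyl-CoA through mevalonate, isoprenoid diphosphates, squalene and lanosterol. SREBP2, made from Srebf2, is held in the endoplasmic reticulum by its escort SCAP and by INSIG proteins while sterols are plentiful, and is carried to the Golgi and cleaved when they run short. The released fragment enters the nucleus and switches on most genes of the route, Insig1 among them, usually together with the factor NF-Y bound at a CCAAT box.

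The promoters of these genes were read for the letters that such factors bind. RefSeq promoters on GRCm38.p6, 250 bases before to 50 after each start, were matched for 22 of the 26 genes. These genes have 28 promoter entries between them. A CCAAT box on either strand was found in 20 of the 28 entries, covering 20 genes, and in 37.4% of all 32851 promoters of that length. The E-box CACGTG, a site of the clock factors and of other factors, was found in 6 of the 28 entries, covering 5 genes (Dhcr7, Hsd17b7, Insig1, Sc5d and Scap), and in 7.15% of all promoters. The sterol regulatory element spelled TCACNCCAC on either strand was found in 1 entry, that of Hmgcs1, and in 1.24% of all promoters. These are matches of letters in a fixed window and not measured sites. Upstream sequence is shown for Hmgcs1, the gene with that element, and for the pair Insig1 and Insig2, whose levels went opposite ways in the knockout comparison and which were chosen after their values were seen. Hmgcs1 is read from chr13:119690101-119690350 on the plus strand, Insig1 from chr5:28071162-28071362 on the plus strand up to its first annotated exon, and Insig2 from chr1:121332590-121332839 on the minus strand. Capitals mark every match to the 3 motifs or their reverse complements, ATTGG being the CCAAT box on the other strand.
Hmgcs1: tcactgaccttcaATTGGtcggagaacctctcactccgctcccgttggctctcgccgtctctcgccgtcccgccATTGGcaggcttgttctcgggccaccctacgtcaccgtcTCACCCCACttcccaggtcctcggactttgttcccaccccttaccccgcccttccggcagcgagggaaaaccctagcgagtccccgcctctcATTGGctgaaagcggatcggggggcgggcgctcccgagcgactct
Insig1: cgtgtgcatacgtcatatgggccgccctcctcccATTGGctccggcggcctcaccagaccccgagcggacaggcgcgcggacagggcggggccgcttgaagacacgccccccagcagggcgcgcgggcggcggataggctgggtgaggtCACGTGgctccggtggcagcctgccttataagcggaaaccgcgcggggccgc
Insig2: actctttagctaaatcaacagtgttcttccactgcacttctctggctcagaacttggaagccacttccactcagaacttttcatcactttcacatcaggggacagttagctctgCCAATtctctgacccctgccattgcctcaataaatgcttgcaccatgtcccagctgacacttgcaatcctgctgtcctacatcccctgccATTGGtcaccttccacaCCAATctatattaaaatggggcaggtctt
The stretch of Hmgcs1 holds the sterol element from 137 to 129 bases before the start, with CCAAT boxes on both sides of it. The stretch of Insig1 holds a CCAAT box and an E-box, and that of Insig2 holds 3 CCAAT boxes and neither of the other motifs. Insig2 has further promoter entries at other starts, not shown, in which none of the motifs was found. Which start these cells use was not tested.

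The checks on the samples were as follows. Ahcy was at 2.21 to 4.74 TPM in the 18 KO libraries, with a median of 3.18, and at 131 to 214 TPM in the 18 WT libraries, with a median of 180. Levels in KO and WT are TPM, which correct for gene length and bring each library to nearly the same sum. Levels in the other experiments are FPKM, which correct for gene length and depth, and the read depth is unknown. The summed level of 8 fibroblast markers was 7128 to 8804 TPM in KO and 9425 to 12577 TPM in WT, and 8 SCN markers summed to 274 to 745 FPKM in DZnep SCN and to 252 to 617 FPKM in saline SCN. The X-linked RNA Xist averaged 0.140 ± 0.0619 TPM in KO and 176 ± 24.0 TPM in WT, and the Y-linked Ddx3y 18.4 ± 0.994 TPM in KO and 0.307 ± 0.0937 TPM in WT (SD, n = 18 each). The KO and WT fibroblasts are therefore different lines, and for every gene below a difference between lines and the loss of AHCY cannot be told apart. Skeletal muscle mRNAs summed to 283 to 380 TPM in the 3 WT libraries of CT20, against 3.26 to 4.70 TPM in the other WT libraries. Across these whole-culture and tissue samples, fewer cells of a type and less RNA per cell cannot be told apart.

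In KO fibroblasts the route stood higher at nearly every step. Of the 26 genes, 23 were higher in KO and 3 were lower by limma at an adjusted p under 0.05, averaged over the 6 times, where 42.6% of all 13603 genes tested were higher and 47.0% lower. The median difference of the 26 genes was 0.77 on the log2 scale, and that of all genes was -0.05. In 20 of the 26 genes every KO library lay apart from every WT library, as it did in 6597 of the 13603 genes. Here and below, overlap was read from the values as deposited. The tests follow a rescaling of the libraries that set KO lower than WT by 0.22 on the log2 scale. The genes that were lower are Insig2, Scap and Ebp. The counts were again 23 and 3 when 6 libraries with high Malat1, a nuclear RNA, were left out, 3 in each arm, and again when the CT20 libraries were left out. Those with high Malat1 were replicate 3 of KO CT16 and replicate 2 of KO CT24 and CT32 and of WT CT16, CT24 and CT32. Beside these counts, 5 of the 8 fibroblast markers were lower in KO and 3 higher. The 5 genes listed as astrocyte markers summed to 12.2 to 23.2 TPM in KO and 153 to 188 TPM in WT. Most of that sum was 1 gene, Gja1, at 9.08 to 19.7 TPM in KO and 151 to 186 TPM in WT. The other one tested, Slc1a3, went the other way, with means of 3.07 TPM in KO and 1.94 TPM in WT. The part of these markers in the result was not tested.

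At the entry to the route, Acat2, the thiolase that joins acetyl-CoA units, had a lowest, median and highest value of 132, 168 and 266 TPM in the 18 KO libraries, against 49.5, 65.6 and 78.8 TPM in the 18 WT libraries. The groups did not overlap (log2 difference 1.17 ± 0.02 SE, adjusted p = 4.4e-26). Hmgcs1, the synthase of the next step, had 25.5, 48.4 and 71.3 TPM in KO against 15.6, 24.8 and 35.7 TPM in WT. Its groups overlapped, with KO libraries of CT12 and CT24 below the highest WT library (0.65 ± 0.07 SE, adjusted p = 5.45e-10).

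The steps from mevalonate to farnesyl diphosphate held some of the widest gaps. Idi1, which isomerizes the first isoprenoid diphosphate, had a lowest, median and highest value of 79.8, 99.8 and 156 TPM in KO against 13.4, 26.9 and 38.6 TPM in WT. Fdps, the farnesyl diphosphate synthase, had 258, 304 and 439 TPM in KO against 62.0, 95.8 and 132 TPM in WT. Neither gene's groups overlapped, and the lowest KO library of each lay well above the highest WT library (1.76 ± 0.03 and 1.48 ± 0.03 log2, SE, adjusted p = 2.1e-29 and 2.9e-27). Before them in the route, the mevalonate kinase Mvk (0.66), the phosphomevalonate kinase Pmvk (1.11) and the decarboxylase Mvd (1.00) were higher on the log2 scale with no overlap. Ggps1, which takes isoprenoids out of the sterol route into geranylgeranyl diphosphate, was higher by 0.43.

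From squalene on, the differences spread from small to the largest of the set. Fdft1, the squalene synthase, differed little after rescaling (0.14 ± 0.02 SE, adjusted p = 5.3e-07), with 35.9, 44.4 and 63.8 TPM in KO and 30.9, 35.1 and 39.1 TPM in WT as lowest, median and highest. These groups overlapped, and its difference was 0.36 with the values as deposited. Sqle, the squalene epoxidase, and Lss, the lanosterol synthase, were higher by 0.74 and 0.65 with no overlap.

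Hsd17b7, a keto reductase acting after lanosterol, had the largest rise of the 26 genes. It stood at 21.6, 26.3 and 34.8 TPM in KO as lowest, median and highest, against 3.08, 4.60 and 6.56 TPM in WT, a ratio of means of 5.50 (2.06 ± 0.03 log2, SE, adjusted p = 1.0e-31). Nsdhl, the X-linked sterol dehydrogenase of the neighbouring steps, stood at 74.3, 86.6 and 127 TPM in KO against 17.0, 23.0 and 26.6 TPM in WT (1.73 ± 0.02 SE, adjusted p = 3.0e-31). For both genes all 18 KO libraries exceeded all 18 WT libraries by a wide margin.

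The remaining late enzymes were mostly higher too. Dhcr7, a final reductase, was higher by 1.47, Sc5d, the sterol desaturase, by 0.82, Cyp51, the lanosterol demethylase, by 0.81, Msmo1, the sterol methyl oxidase, by 0.79, and the reductase Tm7sf2 by 0.21. Ebp, the X-linked sterol isomerase, was the exception among the enzymes. It stood at 28.1, 31.7 and 37.2 TPM in KO against 29.7, 33.3 and 36.5 TPM in WT, values that overlapped almost wholly. Its log2 difference of -0.26 ± 0.02 SE (adjusted p = 2.1e-11) shrank to -0.05 with the values as deposited, since rescaling set KO lower than WT by 0.22 on the log2 scale for all genes.

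The regulators moved apart from each other. Insig1 stood at 59.8, 80.4 and 131 TPM in KO as lowest, median and highest, against 21.6, 27.6 and 34.2 TPM in WT (1.32 ± 0.03 SE, adjusted p = 5.1e-26). Insig2, which encodes the sister protein, stood at 22.8, 25.9 and 29.5 TPM in KO against 77.3, 115 and 164 TPM in WT (-2.30 ± 0.02 SE, adjusted p = 6.3e-36). The groups were apart for both genes, with Insig1 the more abundant INSIG transcript in KO and Insig2 in WT. Srebf2 itself was higher by a smaller amount, at 107 to 149 TPM in KO and 87.5 to 105 TPM in WT (0.18 ± 0.02, SE, and 0.39 with the values as deposited). Its arms did not overlap as deposited, but the gap was narrower than the shift made by rescaling, so the separation holds only for the deposited values. Scap had 53.5 to 63.9 TPM in KO and 50.9 to 78.4 TPM in WT, with overlap, and its log2 difference was -0.27, or -0.06 with the values as deposited. Stard4, a soluble sterol carrier, was higher by 0.33.

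Of the acetyl-CoA suppliers, Acss2, which makes acetyl-CoA from acetate, stood at 8.02, 9.58 and 10.9 TPM in KO against 2.14, 3.16 and 3.93 TPM in WT (1.21 ± 0.04 SE, adjusted p = 2.8e-22). Its groups were far apart. Acly, which makes it from citrate, was higher by 0.22, with 153 to 207 TPM in KO and 102 to 149 TPM in WT.

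**Figure D1:**
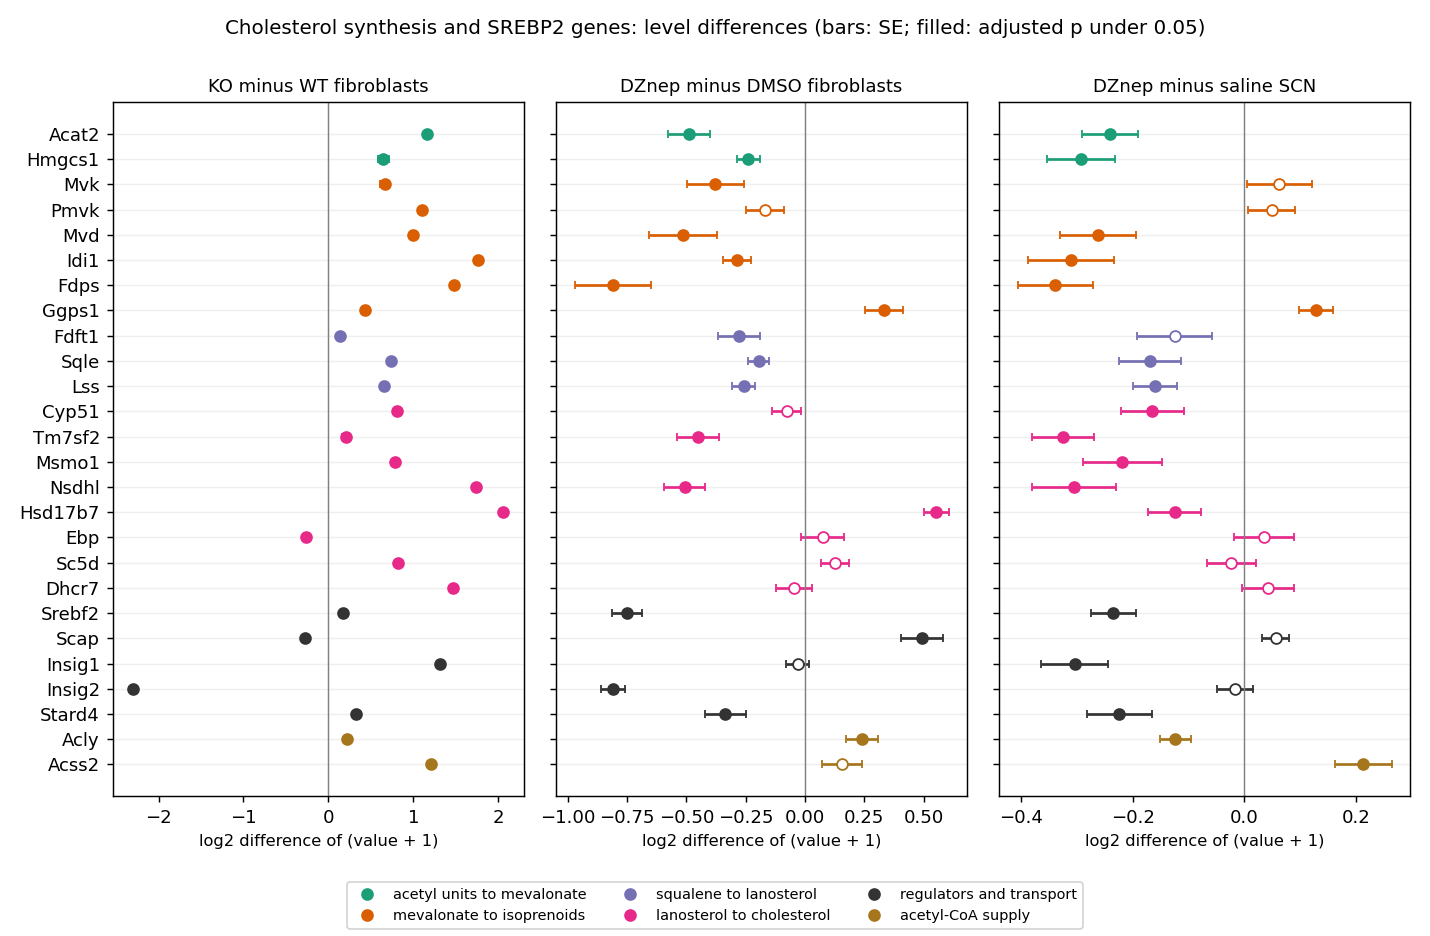
Log2 differences of (value + 1), averaged over times, for the 26 genes in the 3 comparisons, KO minus WT, DZnep minus DMSO and DZnep minus saline SCN. Points are limma estimates with SE bars, filled where the adjusted p is under 0.05, and the horizontal scales differ between panels. In KO, 23 genes lie right of 0, and with DZnep most filled points lie left of 0.

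The gap between KO and WT was not the same at all times. All 18 enzymes of the route itself, leaving out Ggps1, summed to 1229 ± 17.3 TPM in KO at CT12, against 723 ± 12.1 TPM in WT. At CT32 they summed to 1896 ± 134 TPM in KO, against 497 ± 35.8 TPM in WT (SD, n = 3 each). Between these ends the KO sum was 1342, 1488, 1324 and 1562 TPM at CT16, CT20, CT24 and CT28, with a dip at CT24, and the WT sum was 640, 607, 618 and 620 TPM.

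Gene by gene, 23 of the 26 differed among times in KO, where 42.7% of all genes tested did, and 23 of the 26 in WT, where 69.5% did. The courses of the arms differed from each other in 24 of the 26 genes, the others being Ggps1 and Acss2, and in 52.2% of all genes. A straight line fitted over the 20 h, a description added after the data were seen, rose in 20 genes in KO (14.7% of all genes) and fell in 1, Ebp (15.1%). In WT it rose in 3 genes (33.7%), Insig2, Scap and Acss2, and fell in 16 (27.1%). The slope was higher in KO than in WT in 19 genes (20.0%) and lower in 3 (22.0%), again Insig2, Scap and Acss2. Without the CT32 libraries 13 genes rose in KO, 12 fell in WT and 17 had the higher slope in KO. The median log2 change of the 26 genes was then 0.27 in KO and -0.22 in WT, against -0.003 and 0.04 for all genes. Without the CT12 libraries 15 rose in KO, 5 rose and 14 fell in WT, and 17 had the higher slope in KO. The shares of all genes called in these fits were not counted.

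Idi1 changed most between the arms over time. Its 3 libraries held 79.8, 89.7 and 87.5 TPM in KO at CT12, against 35.2, 37.9 and 38.6 TPM in WT. At CT32 they held 156, 140 and 141 TPM in KO, against 13.4, 14.5 and 15.5 TPM in WT. The KO libraries of CT32 were above all KO libraries of CT12, and the WT libraries of CT32 below all WT libraries of CT12. The log2 difference was 0.93 ± 0.07 at CT12 and 3.04 ± 0.07 at CT32 (SE), and the slopes differed by 1.71 ± 0.17 over 20 h (adjusted p = 1.5e-09).

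The same divergence was seen along the route at smaller size. Msmo1 was at 111 ± 4.35 TPM in KO and 88.7 ± 3.10 TPM in WT at CT12 and at 193 ± 13.4 TPM in KO and 49.4 ± 5.94 TPM in WT at CT32 (SD, n = 3 each). Its slopes differed by 1.32 ± 0.14 log2 over 20 h, those of Fdps by 1.10 ± 0.15, those of Lss by 1.07 ± 0.12 and those of Acat2 by 1.05 ± 0.12 (SE). Dhcr7, Hsd17b7 and Sqle followed with 0.99, 0.99 and 0.98. For Msmo1, Hmgcs1, Mvk, Tm7sf2 and Stard4 the difference at CT12 did not pass the test (adjusted p = 0.317, 0.464, 0.425, 0.843 and 0.405) while that at CT32 did. These tests follow the rescaling. With the values as deposited, the ratios of KO to WT means at CT12 were 1.25, 1.34, 1.31, 1.17 and 1.15 in the same order. Fdft1, Srebf2, Scap and Acly were lower in KO at CT12 (-0.17, -0.12, -0.18 and -0.14), but with the values as deposited all 4 were higher there (0.08, 0.13, 0.07 and 0.11), so no direction can be given for them at that time. The slopes of Pmvk and Ggps1 differed by -0.03 ± 0.16 and 0.03 ± 0.08 (SE) and did not pass the test.

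**Figure D2:**
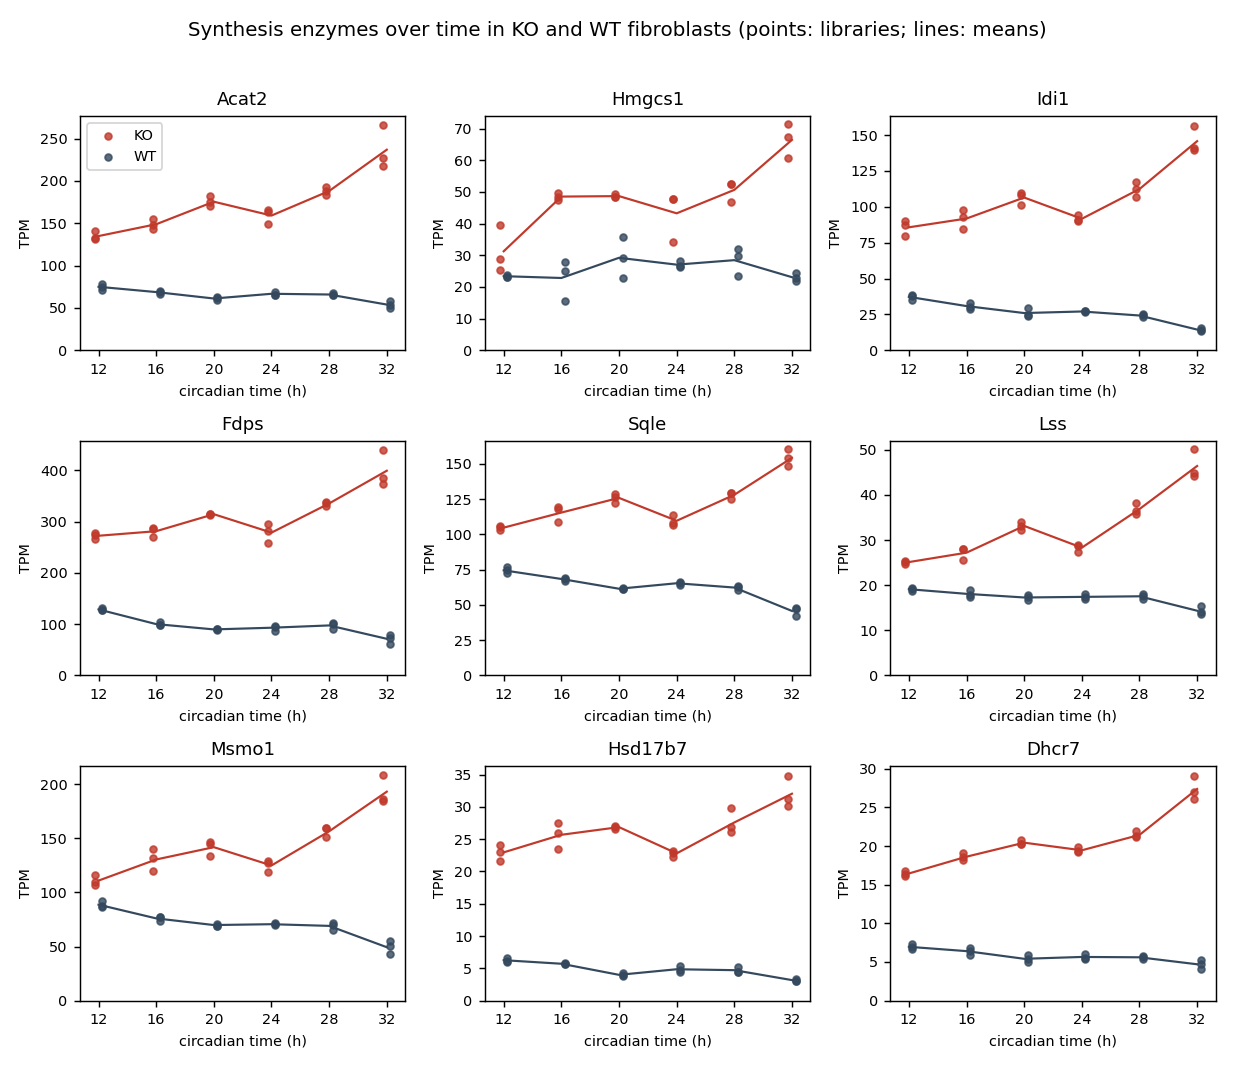
TPM as deposited of 9 synthesis enzymes at the 6 times in KO and WT fibroblasts, with points for libraries and lines for means of 3. The KO and WT means of Idi1 lie at 85.7 and 37.2 TPM at CT12 and at 146 and 14.4 TPM at CT32.

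Insig2 and Insig1 went opposite ways over time in WT but not in KO. Insig2 held 22.8, 24.9 and 26.0 TPM in KO at CT12 and 29.5, 27.8 and 28.6 TPM at CT32, against 77.3, 78.0 and 78.2 TPM in WT at CT12 and 155, 163 and 164 TPM at CT32. In both arms every library of CT32 was above every library of CT12, by far more in WT (0.88 ± 0.07 log2 over 20 h in WT, adjusted p = 5.4e-12, and 0.15 ± 0.07 in KO, SE, adjusted p = 0.145). Insig1 rose over 20 h by 0.78 ± 0.09 in KO, where it reached 131, 120 and 110 TPM at CT32, and fell by 0.33 ± 0.09 in WT (SE). Srebf2 rose by 0.29 in KO and fell by 0.12 in WT.

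**Figure D3:**
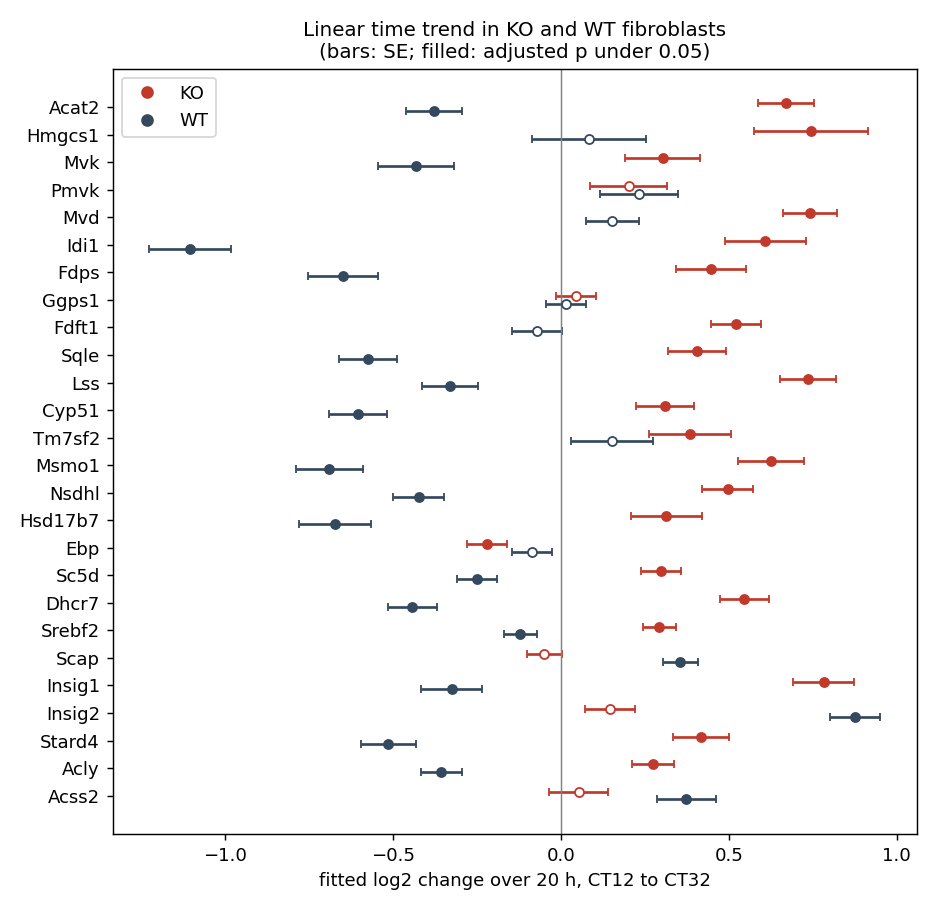
Fitted linear log2 change over 20 h, CT12 to CT32, of each of the 26 genes in KO and WT fibroblasts, with SE bars and filled points where the adjusted p is under 0.05. Most KO points lie right of 0 and most WT points left of 0, with Insig2 at 0.15 in KO and 0.88 in WT.

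Other genes of lipid metabolism in KO fibroblasts split in both directions, as all genes tested did (42.6% higher and 47.0% lower). Of 14 genes of SREBP1 and fatty acid synthesis, 9 were higher and 5 lower (median 0.22), among them Mid1ip1 (0.99), Elovl6 (0.75), which lengthens fatty acids, Me1 (0.58) and Scd2 (-0.63), a desaturase. Of 8 genes of SREBP cleavage and sterol sensing, 3 were higher and 5 lower (median -0.56). Mbtps1, the protease that makes the first cut in SREBPs, differed by -0.60. Rnf145 (-1.02) and Erlin2 (-0.96), which act in the breakdown of sterol-regulated membrane proteins, were lower as well. The 3 higher were Mbtps2 (means of 33.4 TPM in KO and 25.8 TPM in WT), Erlin1 (66.9 and 39.1 TPM) and Ubxn4 (70.9 and 59.5 TPM). Of 12 tested genes of LXR targets, efflux and storage, 3 were higher and 9 lower (median -0.42). The cholesterol exporter Abca1 stood at 4.07, 5.48 and 7.14 TPM in KO as lowest, median and highest, against 15.2, 26.3 and 44.5 TPM in WT (-2.26 ± 0.02 SE, adjusted p = 1.9e-33). The groups were apart. Lpcat3 differed by -1.14, while the ester-forming Soat1 (0.88) and the ester hydrolase Nceh1 (2.17) were higher. Of 9 genes of the isoprenoid branch, 4 were higher and 5 lower, with Pdss1 at 1.17 and the prenyl transferase subunits Fnta and Fntb at -0.71 and -0.84.

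With DZnep in fibroblasts the picture was the reverse for most enzymes. Of the 25 genes tested, 14 were lower in DZnep than in DMSO fibroblasts over both times and 4 were higher, where 32.7% of all 10896 genes tested were lower and 33.1% higher. The median difference of the 25 genes was -0.24 on the log2 scale, and that of all genes was 0.01. The libraries of the arms lay apart in 4 of the 25 genes, Insig2, Srebf2, Ggps1 and Hsd17b7, and in 3285 of all genes. Beside this, 8 fibroblast markers summed to 2831 to 3412 FPKM in DZnep and to 4539 to 5575 FPKM in DMSO, with 6 of the 8 lower. Their part in the result was not tested.

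The difference sat mainly at CT12. There 16 of the 25 genes were lower in DZnep (25.8% of all genes) and 3 higher (25.7%), or 1 without DMSO replicate 1 of CT12. At CT24, 4 were lower (28.7%) and 6 higher (27.9%). The count of 4 rested on single libraries. It was 9 without DMSO replicate 2 of CT24, whose Malat1 level was 196 FPKM, and 2 without each of DMSO replicate 3 of CT24, DZnep replicate 3 of CT12, and DZnep replicates 1 and 2 of CT24. The 17 enzymes of the route that were measured summed to 181 ± 7.25 FPKM in DZnep and 247 ± 11.7 FPKM in DMSO at CT12, and to 135 ± 5.59 FPKM in DZnep and 141 ± 25.1 FPKM in DMSO at CT24 (SD, n = 3 each).

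From CT12 to CT24 more of the genes fell than rose in both arms. In DZnep fibroblasts 8 genes fell (17.8% of all genes) and 3 rose (19.4%), and in DMSO fibroblasts 15 fell (23.9%) and 1 rose (26.8%), Insig2. The 3 that rose with DZnep were Insig2 (0.83), Scap (0.56) and Sc5d (0.33). In 6 genes the change from CT12 to CT24 was more positive in DZnep than in DMSO (3.20% of all genes) and in 0 it was more negative (2.91%), by limma, with 11 and 0 at an unadjusted p under 0.05. The 6 were Hmgcs1, Idi1, Sqle, Cyp51, Insig1 and Insig2. Their number was 11 without DMSO replicate 3 of CT24 and 3 without any of DMSO replicates 2 and 3 and DZnep replicate 1 of CT12 and DZnep replicates 1 and 3 of CT24.

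Idi1 held 4.12, 3.75 and 3.59 FPKM in DZnep at CT12, against 6.09, 6.09 and 6.36 FPKM in DMSO. At CT24 it held 1.90, 2.21 and 2.12 FPKM in DZnep, against 2.00, 2.12 and 1.66 FPKM in DMSO. The arms were apart at CT12 and overlapped at CT24, and the changes differed by 0.65 ± 0.12 log2 (SE, adjusted p = 0.0096). Hmgcs1 held 13.6, 15.1 and 14.4 FPKM in DZnep at CT12, against 20.4, 21.7 and 21.3 FPKM in DMSO, and at CT24 14.1, 12.9 and 13.4 FPKM in DZnep against 11.6, 12.9 and 11.7 FPKM in DMSO. It was lower at CT24 than at CT12 in every DMSO library, and the DZnep libraries of the 2 times overlapped (difference of changes 0.66 ± 0.10 SE, adjusted p = 0.0029). Fdps had the largest enzyme difference over both times (-0.81 ± 0.16 SE, adjusted p = 9.0e-04), with 15.0, 14.2 and 17.9 FPKM in DZnep and 33.5, 36.1 and 29.9 FPKM in DMSO at CT12.

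Lower by smaller amounts over both times were Idi1 (-0.29), Hmgcs1 (-0.24), Mvd (-0.51), Nsdhl (-0.51), Acat2 (-0.49), Tm7sf2 (-0.45), Mvk (-0.38), Stard4 (-0.34), Fdft1 (-0.28), Lss (-0.26) and Sqle (-0.20). Of the enzymes after lanosterol, Hsd17b7 was higher over both times, Tm7sf2 and Nsdhl were lower and the others did not pass the test. Hsd17b7 held 2.20, 2.61 and 2.11 FPKM in DZnep and 1.55, 1.38 and 1.49 FPKM in DMSO at CT12, and 1.84, 1.91 and 1.96 FPKM in DZnep and 0.713, 0.737 and 0.729 FPKM in DMSO at CT24. All DZnep libraries were above all DMSO libraries (0.55 ± 0.05 SE, adjusted p = 2.0e-06). Ggps1 (0.33), Scap (0.49) and Acly (0.24) were higher too. Differences of Cyp51 (-0.08), Pmvk (-0.17), Ebp (0.07), Sc5d (0.13), Dhcr7 (-0.05), Acss2 (0.16) and Insig1 (-0.03) over both times did not pass the test.

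Among the regulators, Srebf2 held 20.7, 21.2 and 20.1 FPKM in DZnep at CT12, against 36.8, 33.8 and 36.5 FPKM in DMSO, and 17.9, 19.4 and 18.6 FPKM in DZnep at CT24, against 31.2, 24.4 and 34.0 FPKM in DMSO. Every DZnep library was below every DMSO library (-0.75 ± 0.06 SE, adjusted p = 9.75e-07). Insig2 held 18.9, 21.4 and 20.7 FPKM in DZnep at CT12, against 38.7, 42.9 and 43.2 FPKM in DMSO, and 34.3, 33.2 and 36.5 FPKM in DZnep at CT24, against 52.4, 49.5 and 48.1 FPKM in DMSO. It was lower with DZnep at both times, as it was in KO (-0.81 ± 0.05 SE, adjusted p = 7.7e-08). Insig1 crossed over, with 5.38, 5.57 and 5.86 FPKM in DZnep and 8.38, 7.94 and 7.84 FPKM in DMSO at CT12, and 5.91, 5.56 and 6.61 FPKM in DZnep and 3.95, 4.18 and 3.99 FPKM in DMSO at CT24. Its groups were apart in opposite directions at the 2 times (-0.49 ± 0.07 and 0.43 ± 0.07, SE, difference 0.92 ± 0.10, adjusted p = 0.00046).

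**Figure D4:**
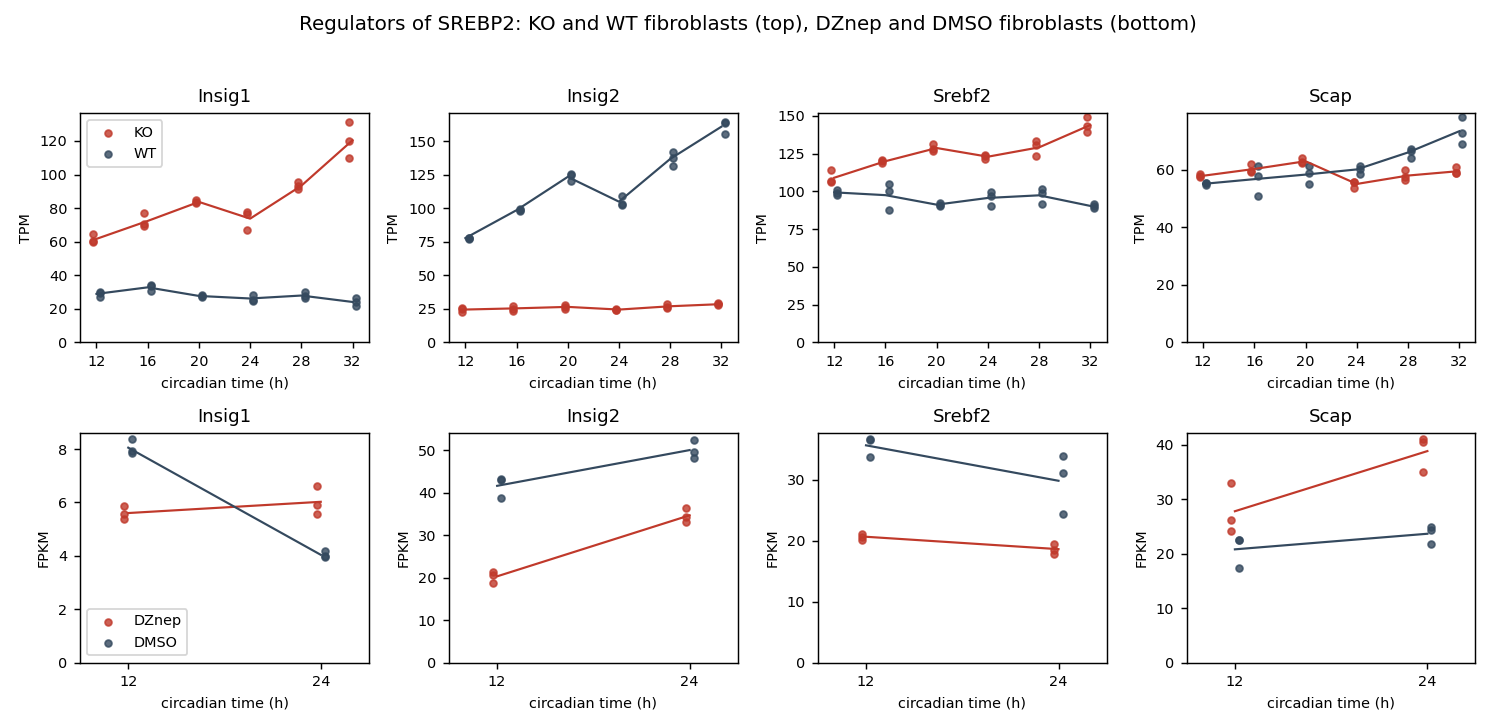
Levels of Insig1, Insig2, Srebf2 and Scap in KO and WT fibroblasts (top, TPM) and in DZnep and DMSO fibroblasts (bottom, FPKM), with points for libraries and lines for means of 3. Insig2 is lower in KO and in DZnep libraries at every time, and the DZnep and DMSO lines of Insig1 cross between CT12 and CT24.

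Other lipid genes went both ways with DZnep, as all genes tested did (33.1% higher and 32.7% lower). Of 14 SREBP1 and fatty acid genes 3 were higher and 5 lower (median -0.01), with the phosphatase gene Lpin1 at 0.78, Scd2 at -0.82, Acsl3 at -0.46 and Elovl6 at -0.45. Of 8 genes of SREBP cleavage and sterol sensing 4 were higher, with Rnf139 at 0.31, Erlin1 at 0.29 and Erlin2 at 0.26. Of 11 tested genes of LXR targets, efflux and storage 3 were higher and 4 lower, with Mylip at -1.15, Abca2 at -0.78, Nr1h2, an LXR gene, at -0.39 and Nceh1 at 0.59. Of 9 isoprenoid branch genes 4 were higher and 2 lower, with Pdss1 at 0.38, Coq2 at -0.68 and Fntb at -0.24.

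In the SCN the differences were small and mostly downward. Of the 26 genes, 16 were lower in DZnep than in saline SCN over the 4 times and 2 higher, where 18.3% of all 13312 genes tested were lower and 16.9% higher. The median difference was -0.16 on the log2 scale for the 26 genes and -0.005 for all genes. The libraries of the arms lay apart in 0 of the 26 genes and in 21 of all genes. Without the saline replicate 2 of CT9, whose immune markers summed to 933 FPKM against a median of 43.6 FPKM in saline SCN, 15 were lower and 2 higher. Beside these results, Malat1 and Neat1 together stood at 524 to 934 FPKM in DZnep SCN and 851 to 1274 FPKM in saline SCN. Of 5 neuron markers 2 were lower with DZnep, and all 5 together summed to 303 to 455 FPKM in DZnep against 370 to 566 FPKM in saline. Of 7 myelin markers 2 were higher and 1 lower, and 5 astrocyte markers summed to 487 to 1006 FPKM in DZnep and 502 to 924 FPKM in saline. The part of any of these in the result was not tested.

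Fdps was lower by a log2 difference of -0.34 ± 0.07 (SE, adjusted p = 2.8e-04). Its lowest, median and highest values were 19.3, 25.8 and 35.3 FPKM in the 16 DZnep libraries, against 25.5, 33.2 and 39.5 FPKM in the 15 saline libraries. Hmgcs1 stood at 23.2, 28.1 and 36.1 FPKM in DZnep against 26.4, 37.5 and 46.9 FPKM in saline (-0.29 ± 0.06 SE, adjusted p = 4.6e-04). The arms overlapped for both genes.

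Insig1 stood at 8.84, 10.2 and 13.6 FPKM in DZnep against 8.37, 13.3 and 18.3 FPKM in saline (-0.30 ± 0.06 SE, adjusted p = 3.0e-04). Srebf2 stood at 21.1, 25.2 and 30.2 FPKM in DZnep against 22.3, 30.1 and 34.9 FPKM in saline (-0.24 ± 0.04 SE, adjusted p = 5.4e-05). Both were shifted down as a group with wide overlap. Tm7sf2 (-0.32), Idi1 (-0.31), Nsdhl (-0.30), Mvd (-0.26), Acat2 (-0.24), Msmo1 (-0.22) and Stard4 (-0.22) were lower by similar amounts, and Sqle (-0.17), Cyp51 (-0.16), Lss (-0.16), Hsd17b7 (-0.13) and Acly (-0.12) by less. Acss2 (0.21 ± 0.05 SE, adjusted p = 0.0017) and Ggps1 (0.13 ± 0.03 SE, adjusted p = 0.0015) were higher. Insig2, so much lower in both fibroblast comparisons, stood at 7.10 to 9.35 FPKM in DZnep and 6.26 to 9.29 FPKM in saline. Its difference was -0.02 (95% interval -0.08 to 0.05) and did not pass the test.

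**Figure D5:**
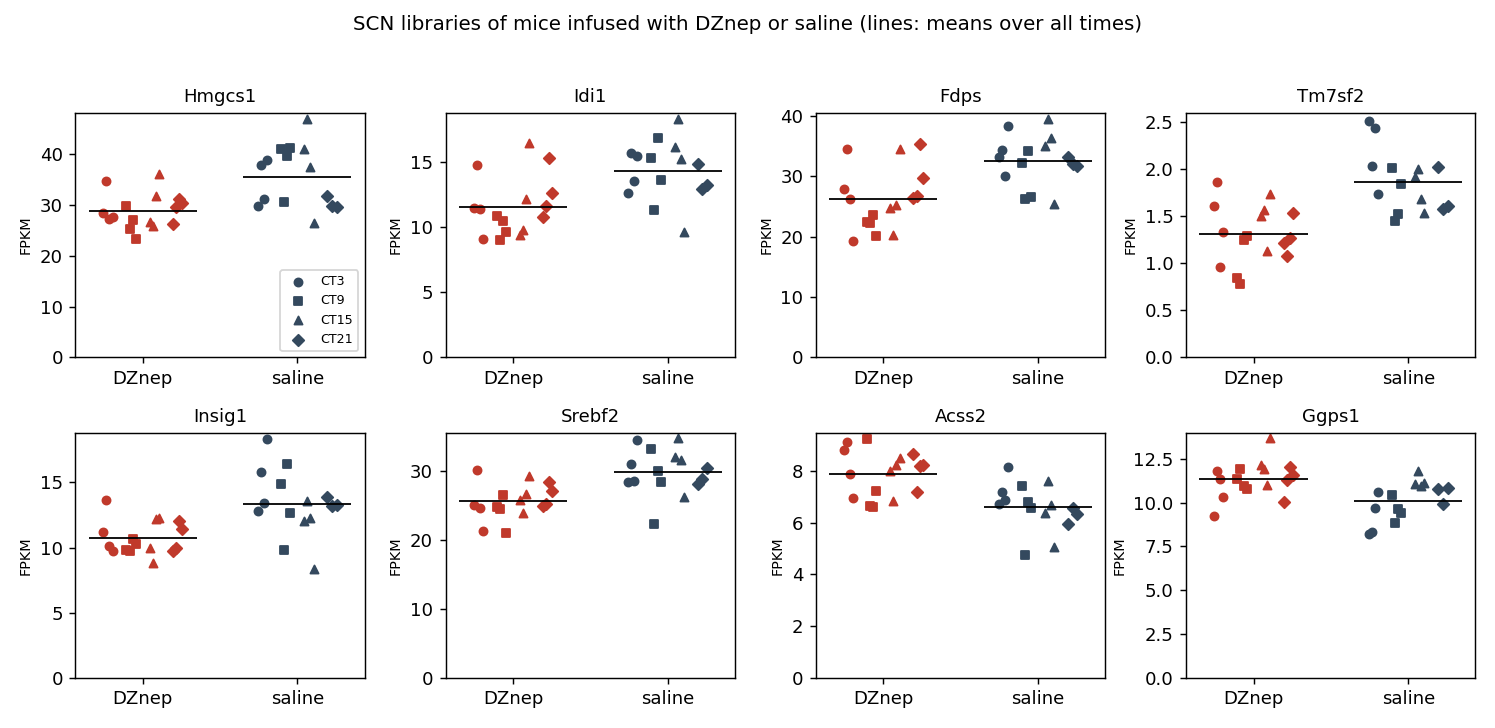
FPKM of 8 genes in the 16 DZnep and 15 saline SCN libraries, with symbols for the 4 times and lines for means over all times. The arms overlap in every panel, with means of Fdps at 26.2 FPKM in DZnep and 32.6 FPKM in saline.

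Few of the genes passed the test for a difference among times in the SCN, as was so for most genes. In DZnep SCN 0 of the 26 differed among times (8.21% of all genes) by limma, with 4 at an unadjusted p under 0.05, and 1 did without saline replicate 4 of CT15. In saline SCN 2 did (14.3%), Dhcr7 and Ggps1 (adjusted p = 0.046 and 0.030), with 3 at an unadjusted p under 0.05. That number was 0 without saline replicate 2 of CT3 or replicates 1 or 3 of CT21, and 3 without saline replicate 2 of CT9 or 4 of CT15. It was 1 without saline replicates 1 or 4 of CT3, 1 or 4 of CT9, 1, 2 or 3 of CT15 or 2 of CT21, or DZnep replicates 2 or 4 of CT3, 3 of CT15 or any of CT21. The time courses of the arms differed in 0 genes (0.601% of all genes) by limma, with 2 at an unadjusted p under 0.05.

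Of the other lipid genes in the SCN, 3 of 14 SREBP1 and fatty acid genes were higher and 5 lower with DZnep. Among all genes tested, 16.9% were higher and 18.3% lower. The differences were 0.37 for Mid1ip1, 0.15 for Elovl5, -0.14 for Fasn, the fatty acid synthase, and -0.11 for Me1. Of 8 genes of SREBP cleavage and sterol sensing 2 were higher and 1 lower, with Rnf139 at 0.08 and Rnf145 at -0.11. Of 13 tested genes of LXR targets, efflux and storage 1 was higher, Nceh1 (0.18), and 2 lower, Abca2 (-0.08) and Cyp46a1 (-0.25), the enzyme by which neurons hydroxylate cholesterol for removal. Of 9 isoprenoid branch genes 3 were higher and 1 lower, with Dhdds at 0.22, Coq2 at 0.11 and Fnta at -0.10.

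Side by side, the knockout and the inhibitor stood on opposite sides for much of the route. Of the 25 genes tested in all 3 experiments, 11 were higher in KO and lower with DZnep in both fibroblasts and SCN, as were 3.24% of the 9706 genes tested in all 3. They are Acat2, Hmgcs1, Mvd, Idi1, Fdps, Sqle, Lss, Tm7sf2, Nsdhl, Srebf2 and Stard4. Higher in KO and in DZnep fibroblasts were 3 genes, Acly, Ggps1 and Hsd17b7 (19.2% of the 9706), and lower in both was 1, Insig2 (20.2%). The fibroblast comparisons use separate KO, WT, DZnep and DMSO libraries, the units differ, and the difference between the effects was not tested.

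Reads of overlapping genes could enter some of these values. The SCN kit is named as stranded, but the strand setting of the quantification is not given in the sources used here. By GENCODE vM21 exons, Fdft1 shares 774 bases with Ctsb on the other strand, Tm7sf2 532 bases with Vps51 on the same strand, Fdps 1124 bases with Gm43738 on the same strand, Acss2 395 bases with Gss, Ggps1 257 bases with Arid4b and Cyp51 166 bases with Akap9. Scap shares 985 bases with 5830462I19Rik, Hmgcs1 557 with Gm48342, Lss 381 with 4930483K19Rik and Idi1 323 with Gm48574, all on the other strand. From the deposited values the reads of each pair cannot be told apart, so the levels of these 10 genes are uncertain.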

How the data were processed

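Gene expression was measured by RNA sequencing. Per the labels' protocols, TRIzol RNA of fibroblasts went into TruSeq RNA v2 libraries, and RNeasy Micro RNA of SCN punches into SMARTer Stranded pico v2 libraries. Tools named in the submitters' processing notes are TopHat2 2.1.1 and Cufflinks 2.2.1, with Trimmomatic 0.36 and bcl2fastq 2.18.0.12, and the build is mm10. The annotation is not given in the sources used here. The deposited values were taken as TPM in the KO and WT tables, from library sums of 970075 to 980677, and the deposited values of the other tables as FPKM. Since read depth is unknown, counting error could not be given. SCN decimals look like those of means of several numbers, so what the SD of SCN libraries stands for is uncertain. Each arm is a separate table.

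Within an experiment, libraries were rescaled jointly by median ratios, genes reaching 1 in at least 3 libraries were kept, and log2(value + 1) was fitted in R 4.3.3 as a mean per arm and time with limma 3.58.1, using a mean-variance trend. Fold changes of low genes are understated. Level differences average the arms' contrast over times, time tests are joint F tests, and p-values were adjusted over all genes by Benjamini-Hochberg with a threshold of 0.05. The fits were tested on simulated data with independent libraries, which cannot show the part of a difference between lines or of shared cultures. Levels in the text are as deposited.

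The members and lists were chosen with earlier results of these data known. All 26 members are named, and up to 4 called genes of smallest p per list of 4 pathway lists, some of which are not reported here. Same-numbered replicates did not all deviate together, so the number was not a block. Correlation was over 0.1 in 21 of 198 pairs in the KO experiment, 8 of 18 in DZnep fibroblasts and 19 of 105 in the SCN. Alternatives were quantile normalization, values as deposited, a pseudocount of 0.1, no filter, a mean of 5 or more, the replicate block, a 24 h cosine, leaving out each library, those with high Malat1 or CT20, and, added after the data were seen, a linear trend.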

Additional observations from a re-analysis of the deposited data

Results flagged for a closer look

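In SCN groups of 4 libraries, 9 of 182 groups of these genes held 1 library far from the other 3, and chance flags about 1 in 20. In DZnep SCN the highest value stood off for Ebp at CT9 (4.60 FPKM, replicate 3), Hmgcs1 at CT3 (34.7 FPKM, replicate 2), Msmo1 at CT21 (36.8 FPKM, replicate 3), Sc5d at CT15 (15.2 FPKM, replicate 4) and Scap at CT3 (13.4 FPKM, replicate 2). In saline SCN the highest stood off for Stard4 at CT3 (4.20 FPKM, replicate 2), and the lowest for Hmgcs1 at CT9 (30.6 FPKM, replicate 2), Hsd17b7 at CT3 (1.40 FPKM, replicate 3) and Mvk at CT15 (4.22 FPKM, replicate 4). The causes were not tested.

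In the knockout comparison the difference between KO and WT changed with time, by the test of arm by time, in 24 genes. The span between the largest and smallest difference over the 6 times, on the log2 scale, was Acat2 1.30, Hmgcs1 1.13, Mvk 0.86, Pmvk 0.60, Mvd 0.76, Idi1 2.10, Fdps 1.43, Fdft1 0.83, Sqle 1.28, Lss 1.28, Cyp51 1.21, Tm7sf2 0.54, Msmo1 1.66, Nsdhl 1.10, Hsd17b7 1.29, Ebp 0.33, Sc5d 0.69, Dhcr7 1.21, Srebf2 0.57, Scap 0.43, Insig1 1.24, Insig2 0.79, Stard4 1.06 and Acly 0.81. The cause was not tested.

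In the DZnep fibroblasts the change from CT12 to CT24 was more positive than in DMSO in 6 genes, by 0.66 in Hmgcs1, 0.65 in Idi1, 0.35 in Sqle, 0.54 in Cyp51, 0.92 in Insig1 and 0.47 in Insig2 on the log2 scale.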

How the results depend on the processing

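In the KO experiment the counts of 23 higher and 3 lower genes were unchanged under every alternative run, including all 36 fits without a library. Under the 24 h cosine 4 genes were called in KO, 6 in WT and 7 between the arms, where 1345, 4970 and 1970 of all 13603 genes were. Without single libraries the genes differing among times numbered 23 to 23 in KO and 21 to 24 in WT, and differing courses 23 to 25. In DZnep fibroblasts the genes lower at CT24 numbered 2 with the values as deposited, 2 with no filter and 9 without the high Malat1 library. Without single libraries they numbered 2 to 9, those higher at CT24 4 to 6, those lower at CT12 13 to 16 and higher at CT12 1 to 4, those lower over both times 14 to 15 and higher 4 to 5, those changing with time 8 to 15 in DZnep and 15 to 23 in DMSO, and differing changes 3 to 11. In the SCN the lower genes numbered 10 when a mean of 5 or more was asked for, which leaves fewer of these genes tested. Genes differing among times in saline SCN numbered 0 with the values as deposited, 1 after quantile normalization and 1 with no filter. Without single libraries the lower genes numbered 15 to 17, the higher 2 to 3, those differing among times 0 to 1 in DZnep and 0 to 3 in saline, and differing courses 0 to 0. Where no reason is given, the cause was not tested. With the replicate number as a block, 23 genes were higher and 3 lower in KO, 4 higher and 14 lower in DZnep fibroblasts, and 3 higher and 15 lower in DZnep SCN. Of the KO, DZnep fibroblast and SCN libraries, 18 of 36, 5 of 12 and 7 of 31 correlated best with their own replicate number. No gene called in the main comparison reversed under these alternatives, but at CT12 Fdft1, Srebf2, Scap and Acly, lower in KO after rescaling, were above WT with the values as deposited. Unknown read depth and the separate table of each arm limit the smallest differences, those of the SCN above all.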
